A study of Mus musculus with 8 samples.

Results

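The genes described here encode the collagens, the laminins and the other main proteins of basement membranes. They were taken by symbol from the table of all genes and comprise every numbered collagen chain and laminin chain together with Nid1, Nid2, Fn1, Hspg2, Agrn and Sparc. The rule gave 60 genes of 21950, namely 43 collagens, 11 laminins and 6 others. Col4a2 and Vtn also match the rule and were not analysed here. d6PGCLCs are in vitro counterparts of early germ cells, derived here from 1 mouse BVSC-iPSC line and taken 6 days after the start of induction from epiblast-like cells, at day 8 of culture. They were sorted for their Blimp1-Venus and Stella-ECFP reporters. The E12.5 PGCs, the germ cell precursors of the embryo, came from the gonads of inbred female C57BL/6J fetuses at E12.5 and were sorted for SSEA1 and integrin β3. Each of the 4 d6PGCLC and 4 E12.5 PGC libraries was 1 pool of cells from an independent experiment, so that the groups also differ in line, strain and sort gate.

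The libraries held between 7991437 and 12024841 counted reads, and 3 counts, taken as the limit of detection in a library, correspond to between 0.249 and 0.383 CPM (counts scaled to library size). These limits account for the counting of reads alone and not for PCR duplication, that is, for counting error only. Over all genes, d6PGCLC replicate 1 was the farthest from its group, with a chi-square of 17.3 to 22.1 for each degree of freedom against the other d6PGCLC libraries, which differed among themselves by 4.79 to 13.2. E12.5 PGC replicates 2 and 4 each differed from their group in 1 set of genes, although replicate 4 and replicate 3 were the closest pair over all genes (3.35). In replicate 2, 6 heat-shock and early response genes summed to 1291 CPM, against 415 to 512 in the other E12.5 PGC libraries and 235 to 268 in the d6PGCLC libraries, and only replicate 4 had reads of 4 Y-linked genes, at 4.78 CPM in total. The markers of the sorted cells were present in both groups. The 9 germ cell markers summed to 3733 to 4321 CPM in d6PGCLCs and to 4402 to 4921 CPM in E12.5 PGCs. Of these, 4 were higher (Pou5f1, Dppa3, Prdm1 and Tfap2c) and 3 lower (Dazl, Ddx4 and Dnd1), beside 16.1% and 15.4% of all genes. Blimp1-Venus and Stella-ECFP report Prdm1 and Dppa3, so that the d6PGCLCs were selected for these markers and the E12.5 PGCs were not. The sums hide large differences of single markers, such as Dazl, with means of 37.7 CPM for d6PGCLCs and 1262 CPM for E12.5 PGCs.

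A basement membrane is a thin sheet of matrix at the surface of epithelia, vessels and muscle. Laminins, each made of an alpha, a beta and a gamma chain, assemble at the cell surface into a polymer. Type IV collagen forms the second network of the sheet, and nidogens and the heparan sulphate proteoglycans perlecan (Hspg2) and agrin (Agrn) bind to these networks. Fibrillar collagens make up the interstitial matrix outside the basement membrane, where other collagens decorate the fibrils. In the embryo, germ cells migrate through such matrix on their way to the gonad, and fibronectin (Fn1) and laminins are among its adhesive proteins.

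Of the 60 genes, 16 were higher and 10 were lower in d6PGCLCs than in E12.5 PGCs, where calls required a p of 0.05 or less after Benjamini-Hochberg adjustment in edgeR's quasi-likelihood test over all genes. The corresponding shares over all genes were 16.1% higher and 15.4% lower, against 26.7% and 16.7% of the matrix genes. Of the 17 genes that are not collagens, 10 were higher and 1 was lower (58.8% and 5.88%), and their median log2 fold change was 0.31. Of the 43 collagens, 6 were higher and 9 were lower (14% and 20.9%), and the median was -0.61, while the median over all genes was 0.00. These kinds differed in depth, since 14 of the 43 collagens and 14 of the 17 other genes averaged 20 counts or more. Of these, 3 collagens were higher and 7 lower (21.4% and 50%), and 10 of the other genes were higher and 1 lower (71.4% and 7.14%), beside 28.3% and 25.7% of all genes at this depth. The difference between collagens and the other genes was not tested. Fold changes are of d6PGCLC over E12.5 PGC throughout, and positive values are higher in d6PGCLCs.

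With a log2 fold change of at least 2 added to the threshold, 5 matrix genes were higher (Lama1, Lama5, Col26a1, Col1a1 and Col20a1) and 4 were lower (Col6a6, Col27a1, Col13a1 and Col6a3), against 3.24% and 3.37% of all genes. Col20a1 was at the limit of detection in both groups, so that its fold depends on the prior count. With a prior count of 2, 4 matrix genes were higher, without Col20a1. By adjusted p alone, 4.83% and 5.93% of all genes with a mean under 20 counts per library were higher and lower. A mean of at least 20 counts per library was reached by 28 of the 60 genes, of which 13 were higher and 8 lower (46.4% and 28.6%), beside 28.3% and 25.7% of all genes with such a mean. With the added fold change, 3 of the 28 genes were higher and 3 lower, beside 3.45% and 2.46% of all genes with such a mean. Of the other 32 genes, 11 had at most 3 counts in every library, and 2 of these, Col4a3 and Col8a1, had no counts. For 22 of the 60 genes (36.7%) the ranges of both groups were separate, beside 30.2% of all genes, and for 19 of the 28 better covered genes, beside 51.7% of all genes with such a mean. RNA was measured in bulk, so that fewer cells expressing a gene and less RNA per cell cannot be told apart.

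**Figure D1:**
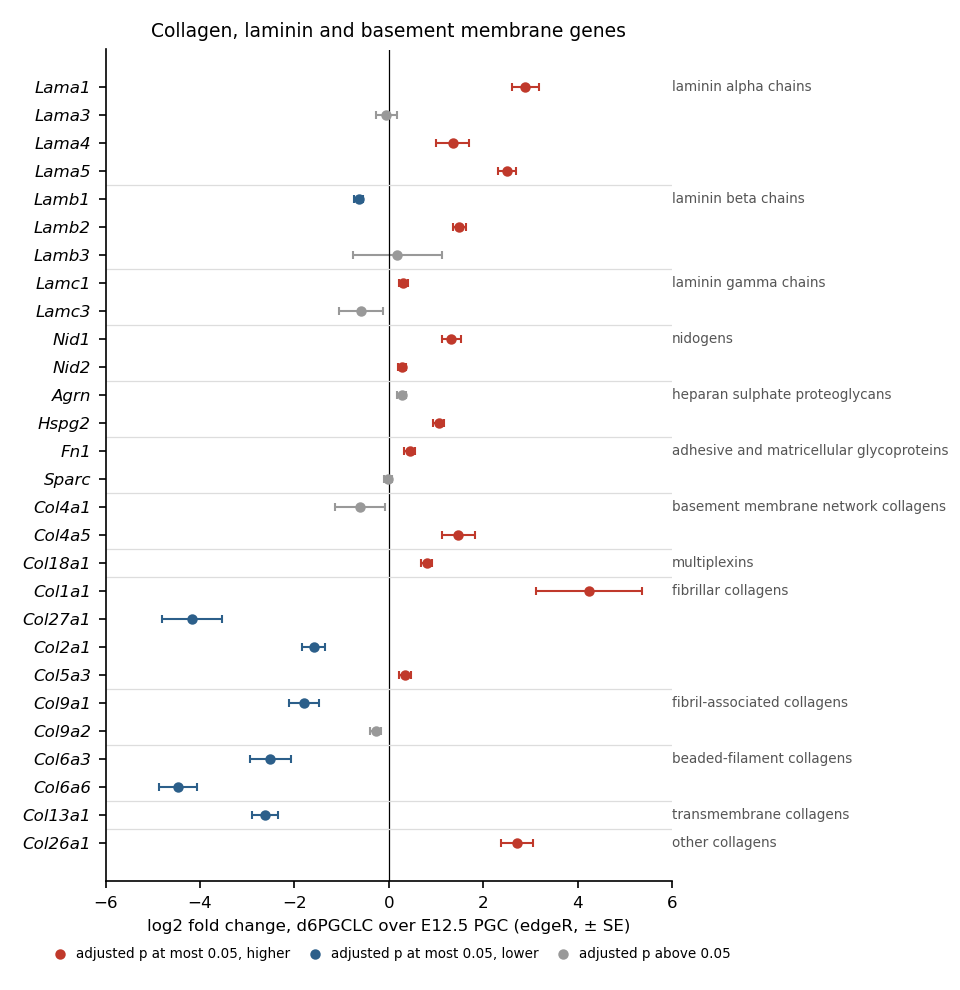
Log2 fold changes of d6PGCLC over E12.5 PGC with standard errors from edgeR, by family, for the named genes that were above 3 counts in at least 1 library. Red points passed an adjusted p of 0.05 and were higher in d6PGCLCs, blue points passed and were lower, and grey points did not pass. The laminin alpha chains Lama1 and Lama5 lie at 2.89 and 2.51 and the collagens Col6a6 and Col13a1 at -4.47 and -2.62. The point of Col27a1 depends on the prior count, since it was at the limit of detection in d6PGCLCs.

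Promoters are shown for the genes with the largest changes among those at a mean of at least 1 RPKM, to set them side by side. The RefSeq table of GRCm38.p6 held a promoter window, from 250 bases before to 50 after the start of the gene, for Lama5 at chr2:180225810-180226109, for Col6a6 at chr9:105828036-105828335 and for Col13a1 at chr10:61979059-61979358, each on the minus strand. The counted isoform of Col6a6 matches a transcript at chr9:105774112-105809648, which starts downstream of the window shown, and those of Lama5 and Col13a1 were not matched. Lama1 and Col26a1 also belong to these genes. Capitals mark matches, on either strand, to the GC box GGGCGG, the AP-2 motif GCCNNNGGC and the TATA box TATAAA.
Lama5: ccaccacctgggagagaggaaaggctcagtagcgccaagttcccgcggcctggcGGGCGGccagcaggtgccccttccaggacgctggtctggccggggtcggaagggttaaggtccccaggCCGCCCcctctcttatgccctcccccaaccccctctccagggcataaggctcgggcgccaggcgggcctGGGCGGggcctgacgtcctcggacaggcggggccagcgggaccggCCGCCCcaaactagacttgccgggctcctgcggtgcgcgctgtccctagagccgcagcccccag
Col6a6: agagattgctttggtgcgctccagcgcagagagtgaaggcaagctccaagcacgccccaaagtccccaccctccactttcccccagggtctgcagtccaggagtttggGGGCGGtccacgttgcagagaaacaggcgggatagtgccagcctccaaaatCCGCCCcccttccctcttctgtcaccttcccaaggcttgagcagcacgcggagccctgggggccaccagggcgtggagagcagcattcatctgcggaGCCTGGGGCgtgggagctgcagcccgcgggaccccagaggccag
Col13a1: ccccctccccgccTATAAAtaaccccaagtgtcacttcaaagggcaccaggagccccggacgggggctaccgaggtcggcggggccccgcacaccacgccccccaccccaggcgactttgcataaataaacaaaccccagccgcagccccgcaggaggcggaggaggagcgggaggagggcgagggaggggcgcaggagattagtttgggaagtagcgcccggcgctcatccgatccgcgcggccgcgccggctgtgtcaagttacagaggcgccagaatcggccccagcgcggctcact

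The windows differed in these letters. That of Lama5 held 4 GC boxes, that of Col6a6 2 GC boxes and 1 AP-2 motif, and that of Col13a1 a TATA box and no GC box. Over 32851 windows of the same length, 35.7% held a GC box, 16.6% the AP-2 motif and 13.6% the TATA box. None of the windows of these genes held the octamer ATTTGCAT or the E-box CACGTG, which were present in 1.74% and 7.15% of all windows. CpG dinucleotides numbered 24 in the window of Lama5, 14 in that of Col6a6 and 29 in that of Col13a1, against a median of 7 over all windows and of 11 over the 48 windows that belong to 43 of the matrix genes. Matches of this kind describe the sequence and do not identify bound sites.

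Among the laminin alpha chains, Lama1 and Lama5 rose several-fold and Lama4 rose to a lesser extent, whereas Lama3 was at a like level in both groups. Levels are given as RPKM, that is, counts per kilobase of the exonic length deposited for the gene, scaled to library size. Lama1 encodes the alpha chain of the laminin of the earliest embryonic basement membranes and lies at chr17:67697127-67822645 on the plus strand. Its level was 9.02, 4.60, 4.44 and 5.25 RPKM in the d6PGCLC libraries 1 to 4 and 1.39, 0.503, 0.705 and 0.604 RPKM in the E12.5 PGC libraries 1 to 4. The groups did not overlap, and replicate 1 was the highest library of both. The log2 fold change was 2.89 (SE 0.29, adjusted p = 5.85e-08). The counted isoform of Lama1 matches in length a GENCODE transcript of 2500 bases with 16 exons, annotated as a retained intron, which is 26.2% of the longest transcript of the gene, so that the level describes its 5′ portion.

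Lama5, at chr2:180176373-180225904, encodes the alpha chain that is widespread in epithelial and vascular basement membranes. It was at 2.87, 3.98, 2.63 and 2.40 RPKM in d6PGCLCs and at 0.447, 0.565, 0.507 and 0.554 RPKM in E12.5 PGCs. All 4 d6PGCLC libraries were thus above all E12.5 PGC libraries, at a log2 fold change of 2.51 (SE 0.19, adjusted p = 1.52e-09). Lama4, whose chain is known from vessels and muscle, was at 0.866, 1.35, 0.858 and 1.41 RPKM in d6PGCLCs and at 0.282, 0.272, 0.447 and 0.700 RPKM in E12.5 PGCs. Its groups did not overlap either, with a narrower gap, and its log2 fold change was 1.35 (SE 0.35, adjusted p = 0.00345). Leaving out d6PGCLC replicates 2 and 4 together, an alternative chosen after the data had been seen, gave Lama4 a log2 fold change of 0.98 with an adjusted p of 0.101.

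Lama3, the alpha chain of the laminin that anchors the epidermis, was at 4.39, 3.96, 1.65 and 2.35 RPKM in d6PGCLCs and at 3.48, 2.69, 3.03 and 3.49 RPKM in E12.5 PGCs. The E12.5 PGC values lay within the range of the d6PGCLC values (log2 fold change -0.05, SE 0.22, adjusted p = 1.00). Lama2, the alpha chain of muscle laminin, was at the limit of detection in both groups. Its deposited length is 2163 bases and its longest transcript has 9614, so that its counts describe a part of the gene. Set against the summed RPKM of the alpha chains of a library, Lama3 was the largest part in E12.5 PGCs, at 64.3% ± 1.91 (SD, n = 4), and Lama1 in d6PGCLCs, at 44.4% ± 8.16 (SD, n = 4). The share of Lama3 in d6PGCLCs was 22.9% ± 5.05 (SD, n = 4), and that of Lama1 in E12.5 PGCs was 15.8% ± 6.21 (SD, n = 4). The counted lengths are those of isoforms chosen at random. The lengths bear on these shares and cancel in the fold changes, which describe the exons of the counted isoform only.

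The beta chains moved in opposite directions. Lamb1, the beta chain of most embryonic laminins, was at 17.7, 15.1, 15 and 15.3 RPKM in d6PGCLCs and at 27.4, 23.1, 24.3 and 23.6 RPKM in E12.5 PGCs. Lamb2, the beta chain enriched at the neuromuscular synapse and in the kidney glomerulus, was at 9.54, 7.83, 8.20 and 5.78 RPKM in d6PGCLCs and at 3.04, 2.99, 2.46 and 2.72 RPKM in E12.5 PGCs. Neither gene had overlapping groups. Lamb1 fell by 0.64 on the log2 scale (SE 0.09, adjusted p = 1.18e-05) and was the only laminin that was lower by this test, and Lamb2 rose by 1.49 (SE 0.14, adjusted p = 5.19e-08). The ratio of Lamb1 to Lamb2 RPKM was accordingly 2.06 ± 0.388 (SD, n = 4) in d6PGCLCs and 8.84 ± 0.879 (SD, n = 4) in E12.5 PGCs. Lamb3, which pairs with the alpha chain of Lama3, had a mean of 2.12 counts and a log2 fold change of 0.18 (SE 0.94, adjusted p = 1.00).

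Among the gamma chains, Lamc1, which most laminins share, was the most abundant laminin gene in both groups. It was at 43.0, 37.7, 33.7 and 32.7 RPKM in d6PGCLCs and at 32.5, 26.4, 31.7 and 28.1 RPKM in E12.5 PGCs, with the lowest d6PGCLC library just above the highest E12.5 PGC library. The log2 fold change was 0.31 (SE 0.10, adjusted p = 0.0200). Lamc3 was lower without passing the test (log2 fold change -0.59, SE 0.47, adjusted p = 0.420). The call of Lamc1 was lost in 5 of 20 alternatives. Without E12.5 PGC replicate 2 its adjusted p was 0.0677, without replicate 4 it was 0.0683, and without both it was 0.289. Leaving out d6PGCLC replicate 1 also ended the call (adjusted p = 0.0558), as did upper quartile scaling with all libraries kept (adjusted p = 0.0510).

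**Figure D2:**
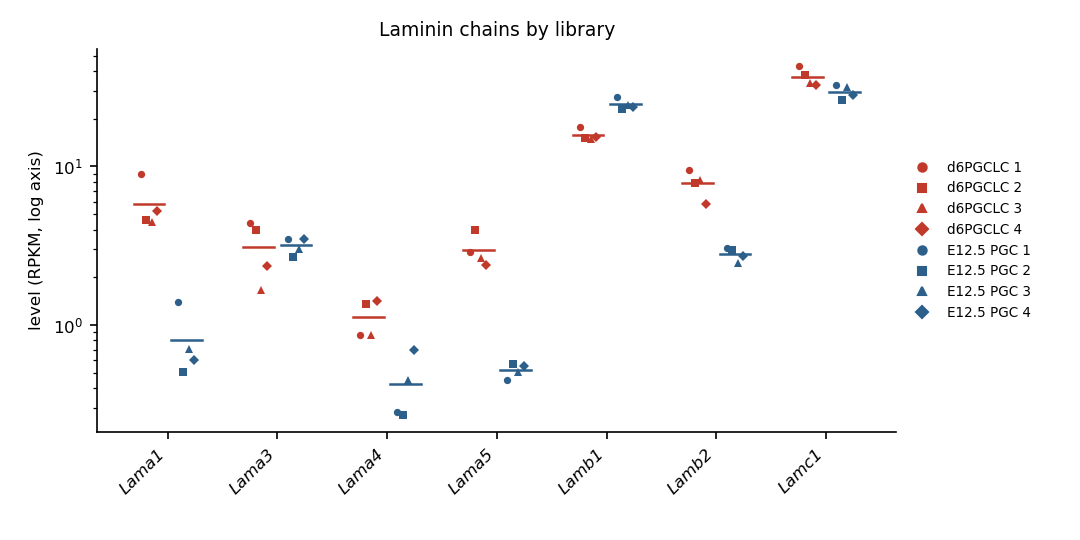
Level of 7 laminin chains in each library, in RPKM on a log axis. Red symbols are d6PGCLC libraries, blue symbols E12.5 PGC libraries, the shape gives the replicate, and horizontal lines are group means. The groups are apart for Lama1, Lama5 and Lamb2, where d6PGCLCs are higher, and for Lamb1, where they are lower, and overlap for Lama3.

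The nidogens, which link laminin to type IV collagen, were both higher in d6PGCLCs. Nid2 was the most abundant of all the matrix genes per length, at 204, 165, 182 and 173 RPKM in d6PGCLCs and at 159, 141, 145 and 149.8 RPKM in E12.5 PGCs. The groups did not overlap, but the change was small (log2 fold change 0.28, SE 0.09, adjusted p = 0.0145), and it did not pass without E12.5 PGC replicate 3 (adjusted p = 0.0552) or without replicates 2 and 4 together (adjusted p = 0.0994). Exons of Nid2 overlap those of Rtraf on the opposite strand over 437 bases, and whether strand was used in counting is not given in the sources used here. Nid1 was at 5.97, 2.92, 4.44 and 5.12 RPKM in d6PGCLCs and at 2.11, 1.59, 1.98 and 1.67 RPKM in E12.5 PGCs. Its groups were separate too, and it changed by a larger factor than Nid2, at a log2 fold change of 1.32 (SE 0.20, adjusted p = 1.72e-05). The ratio of Nid2 to Nid1 was 41.3 ± 10.6 (SD, n = 4) in d6PGCLCs and 81.8 ± 8.51 (SD, n = 4) in E12.5 PGCs.

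Of the heparan sulphate proteoglycans, Hspg2 passed the test and Agrn did not. Hspg2, which encodes perlecan, was at 10.3, 10, 10.7 and 10.7 RPKM in d6PGCLCs and at 5.93, 4.07, 5.57 and 4.41 RPKM in E12.5 PGCs. Its d6PGCLC libraries were close together and all above the E12.5 PGC libraries, at a log2 fold change of 1.06 (SE 0.12, adjusted p = 4.45e-07). Agrn, known for clustering acetylcholine receptors at the synapse, was at 41.4, 40.1, 38.6 and 34.2 RPKM in d6PGCLCs and at 33.8, 34.8, 29.1 and 30.6 RPKM in E12.5 PGCs. The groups overlapped at their edges, and the log2 fold change of 0.27 (SE 0.10) had an adjusted p of 0.0524, which passed in 6 of 20 alternatives.

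Fibronectin and Sparc were, with Nid2, the genes of the highest level. Together they made up 66.4% of the summed RPKM of the 60 genes in d6PGCLCs and 67.5% in E12.5 PGCs. Fn1 was at 185, 125, 137 and 142 RPKM in d6PGCLCs and at 118, 96.1, 114 and 108 RPKM in E12.5 PGCs. Its exons share 292 bases with Apol7d on the opposite strand. All d6PGCLC libraries were above the E12.5 PGC libraries, with replicate 1 highest in both groups, and the log2 fold change was 0.44 (SE 0.11, adjusted p = 0.00227). Sparc, which encodes a collagen-binding glycoprotein, was at 85.9, 98.1, 86.9 and 95.2 RPKM in d6PGCLCs and at 87.6, 94.3, 90 and 98.8 RPKM in E12.5 PGCs. The values of the groups were interleaved (log2 fold change -0.02, SE 0.09, adjusted p = 1.00). The summed level of the 60 genes was 632 ± 53.5 RPKM (SD, n = 4) in d6PGCLCs and 519 ± 21.3 RPKM (SD, n = 4) in E12.5 PGCs, with 595 as the lowest d6PGCLC value and 546 as the highest E12.5 PGC value.

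Type IV collagen, the network collagen of basement membranes, was low in both groups, below 1 RPKM in every library for each of the 5 chains analysed. Col4a1 had 8, 54, 5 and 27 counts in d6PGCLCs and 31, 72, 34 and 12 counts in E12.5 PGCs, or 0.293 ± 0.266 and 0.450 ± 0.312 RPKM (SD, n = 4 each). The libraries of a group differed more than the groups did, and the log2 fold change was -0.61 (SE 0.54, adjusted p = 0.50). With single libraries left out in turn, it ranged from -1.38 to -0.06 and did not pass. Col4a5, on the X chromosome, was at 0.326 ± 0.0759 RPKM in d6PGCLCs and at 0.116 ± 0.0326 RPKM in E12.5 PGCs (SD, n = 4 each), without overlap, and rose by 1.47 on the log2 scale (SE 0.35, adjusted p = 0.00171). Col4a4 and Col4a6 were at or below 3 counts in every library and Col4a3 had no counts. The counted length of Col4a3 matches a retained-intron transcript of 2 exons, 22.5% of the longest, and that of Col4a6 a processed transcript of 18 exons, 46.5% of the longest. The absent counts of Col4a3 and the low counts of Col4a6 thus describe these stretches only. Lamc1, the most abundant laminin, was, by comparison, at 36.8 ± 4.67 RPKM in d6PGCLCs and at 29.7 ± 2.90 RPKM in E12.5 PGCs (SD, n = 4 each). The gene next to Col4a1, Col4a2, starts from the opposite strand, and the RefSeq promoter windows of the pair share 78 bases. The authors removed genes with overlapping promoters at random.

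Among the collagens outside the networks, Col18a1 was the most abundant. It encodes a basement membrane collagen with heparan sulphate chains, whose cleavage gives endostatin. Its level was 63.9, 51.8, 63.2 and 49.0 RPKM in d6PGCLCs and 35.4, 30.0, 33.4 and 31.9 RPKM in E12.5 PGCs. The groups were apart, at a log2 fold change of 0.80 (SE 0.11, adjusted p = 3.66e-06). Col15a1, the other multiplexin, had 8 to 57 counts in d6PGCLCs and 11 to 35 in E12.5 PGCs (adjusted p = 0.761). Col26a1, at chr5:136741759-136883376, rose most among the collagens that averaged 20 counts or more. It was at 2.53, 2.30, 1.26 and 1.58 RPKM in d6PGCLCs and at 0.193, 0.228, 0.343 and 0.364 RPKM in E12.5 PGCs, without overlap (log2 fold change 2.71, SE 0.34, adjusted p = 7.90e-07).

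**Figure D3:**
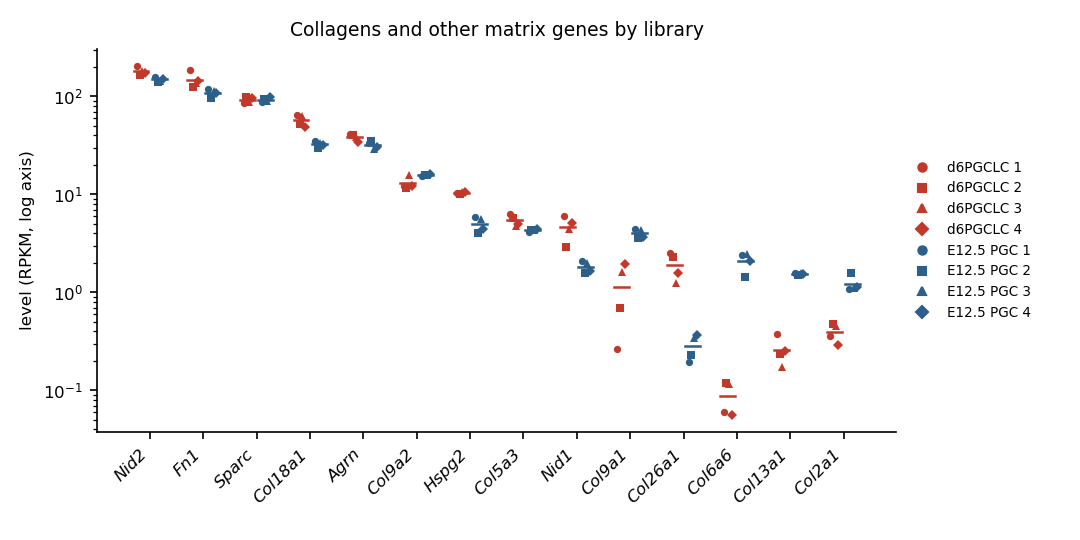
Level in each library, in RPKM on a log axis, of the genes that are not laminins and are given by library in the text, other than Col27a1, which had no counts in 1 library. Symbols, colours and lines are as in the plot of the laminin chains, and genes are ordered by their mean level. Nid2, Fn1 and Sparc lie near or above 100 RPKM in both groups, while Col6a6, Col13a1 and Col2a1 are low in all libraries and lower in each d6PGCLC library than in any E12.5 PGC library.

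The collagens that fell came from several families, and most were at low levels in both groups. Col6a6, at chr9:105689417-105828246, encodes an alpha chain of the type VI family, which forms beaded filaments. It was at 0.0597, 0.119, 0.116 and 0.0567 RPKM in d6PGCLCs and at 2.42, 1.45, 2.44 and 2.09 RPKM in E12.5 PGCs, which corresponds to 2 to 6 counts against 59 to 113 counts. The log2 fold change of -4.47 (SE 0.40, adjusted p = 6.97e-10) was the largest decrease among the matrix genes that exceeded 3 counts in a library of each group. The counted length of Col6a6 matches an isoform of 8 exons and 3954 bases, 45% of the longest. Col6a3, another chain of this family, was at 0.0366 ± 0.0181 RPKM in d6PGCLCs and at 0.218 ± 0.0435 RPKM in E12.5 PGCs (SD, n = 4 each; log2 fold change -2.51, SE 0.44, adjusted p = 3.62e-05). The other 5 beaded-filament collagens did not pass the test. Of these, Col6a1 and Col6a2, which are the partners of Col6a3 in type VI collagen, had at most 11 counts in any library.

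Col13a1, at chr10:61838234-61979206, encodes a collagen that spans the plasma membrane. It was at 0.372, 0.233, 0.173 and 0.252 RPKM in d6PGCLCs and at 1.58, 1.51, 1.59 and 1.54 RPKM in E12.5 PGCs. The E12.5 PGC libraries were almost equal and all far above the d6PGCLC libraries (log2 fold change -2.62, SE 0.28, adjusted p = 8.83e-08). Col23a1, also a transmembrane collagen and chosen for mention after its values had been seen, had 5 to 12 counts in d6PGCLCs and 27 to 36 counts in E12.5 PGCs, and was called lower with an adjusted p of 5.09e-04. Col17a1 and Col25a1, the others of this family, did not pass (adjusted p = 0.346 and 0.264).

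Among the fibrillar collagens, Col2a1, the main collagen of cartilage, was at 0.362, 0.477, 0.459 and 0.292 RPKM in d6PGCLCs and at 1.08, 1.57, 1.10 and 1.13 RPKM in E12.5 PGCs. It fell by 1.59 on the log2 scale (SE 0.24, adjusted p = 1.23e-05), without overlap of the groups. Col27a1, a fibrillar collagen of cartilage and other tissues, had 3, 3, 2 and 0 counts in d6PGCLCs, which is the limit of detection, and 50, 25, 49 and 32 counts in E12.5 PGCs. Taking 3 counts in each d6PGCLC library as its limit, Col27a1 was at least 12-fold lower there (adjusted p = 7.73e-07). Col5a3, a minor fibrillar chain, was at 6.38, 5.68, 4.79 and 4.95 RPKM in d6PGCLCs and at 4.18, 4.30, 4.29 and 4.47 RPKM in E12.5 PGCs. It was the most abundant fibrillar collagen and rose slightly (log2 fold change 0.34, SE 0.12, adjusted p = 0.0354). This call was lost in 10 of 20 alternatives, among them the omission of each E12.5 PGC library in turn and of d6PGCLC replicate 1 or 2, with adjusted p of up to 0.117.

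The fibril-associated collagens, which sit on the surface of fibrils, included 3 genes that were lower. Col9a1, a chain of the type IX collagen that coats cartilage fibrils, was at 0.262, 0.698, 1.61 and 1.97 RPKM in d6PGCLCs and at 4.39, 3.63, 4.30 and 3.71 RPKM in E12.5 PGCs. The d6PGCLC libraries spread widely and all remained below the E12.5 PGC libraries (log2 fold change -1.80, SE 0.32, adjusted p = 1.10e-04). Col9a2, its partner, was at 12.1, 11.7, 15.8 and 12.1 RPKM in d6PGCLCs and at 15.3, 15.6, 15.9 and 16.3 RPKM in E12.5 PGCs. Its groups overlapped through d6PGCLC replicate 3, and the log2 fold change was -0.28 (SE 0.11, adjusted p = 0.0663), which passed in 8 of 20 alternatives. Col12a1 (adjusted p = 0.0481) and Col22a1 (adjusted p = 0.0418) were the other lower genes and are named after their values had been seen. Col12a1 had 0 to 6 counts in d6PGCLCs and 2 to 11 in E12.5 PGCs, and Col22a1 had 12 to 17 and 19 to 43. Col20a1 was called higher (adjusted p = 0.0272) with at most 3 counts in each d6PGCLC library and none in E12.5 PGCs, so that no fold is given. Its call was lost in 10 of 18 alternatives, which include the omission of each E12.5 PGC library in turn.

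The interstitial collagens Col1a1, Col1a2 and Col3a1, the main fibrillar collagens of connective tissue, were carried by a few libraries. Their means were below 20 counts, and Col1a2 and Col3a1 are described after their values had been seen. Col1a1 had 6, 38, 3 and 97 counts in d6PGCLCs and 1, 4, 2 and 1 counts in E12.5 PGCs, a log2 fold change of 4.24 (SE 1.13, adjusted p = 7.19e-04) with overlapping groups. Col1a2 had 5, 20, 0 and 39 counts against 3, 10, 0 and 4, and Col3a1 had 10, 31, 0 and 55 counts against 4, 28, 2 and 1. d6PGCLC replicates 2 and 4 thus held 280 of the 304 d6PGCLC counts of these genes (92.1%), while replicate 3 had 3. Col1a2 (log2 fold change 2.01, adjusted p = 0.0730) and Col3a1 (log2 fold change 1.56, adjusted p = 0.173) did not pass. Col1a2 passed in 5 of 19 alternatives and Col3a1 in 4 of 20. Without E12.5 PGC replicate 2, their log2 fold changes were 2.86 and 3.44 (adjusted p = 0.0357 and 0.0100). Without d6PGCLC replicates 2 and 4, the log2 fold change of Col1a1 was 1.17 (adjusted p = 0.462) and those of Col1a2 and Col3a1 were -0.68 and -0.72 (adjusted p = 0.865 and 0.808). In the same fit Col4a1 was lower, at -2.51 (adjusted p = 0.00385).

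Of other genes of connective tissue, Postn had its d6PGCLC counts in the same libraries, as had Bgn (0, 1, 0 and 2 counts). Thbs2, Tcf21, Fbn1 and Fbln5 had at most 3 counts in any library and none in d6PGCLC replicates 2 and 4. Postn, which encodes a matrix protein of fibroblasts, had 0, 4, 0 and 11 counts in d6PGCLCs and at most 2 in E12.5 PGCs. Dcn and Lum, small proteoglycans of fibroblasts, had at most 3 counts in any library, and Pdgfra, a stromal receptor, had at most 1 count in d6PGCLCs and 1 to 6 in E12.5 PGCs. Pdgfrb, a receptor of pericytes and stroma, was higher, with 41, 36, 41 and 54 counts in d6PGCLCs and 7, 15, 10 and 15 in E12.5 PGCs (log2 fold change 1.96, SE 0.33, adjusted p = 4.31e-05). Eln, which encodes elastin, was also higher, with 10, 6, 9 and 8 counts against 1, 1, 0 and 0 (adjusted p = 4.73e-04), and no fold is given because the E12.5 PGC libraries were at the limit of detection. Both were raised in all d6PGCLC libraries, and these connective tissue genes were chosen after their values had been seen. The part of other cells in the counts of Col1a1, Col1a2 and Col3a1 was not tested.

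**Figure D4:**
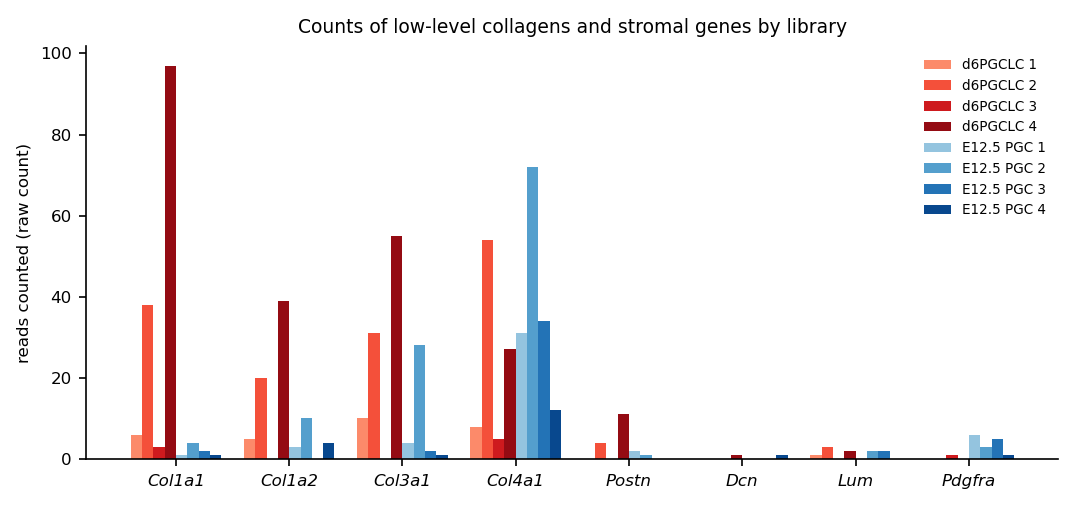
Raw counts of Col1a1, Col1a2, Col3a1 and Col4a1 and of the stromal genes Postn, Dcn, Lum and Pdgfra in each library. Red bars are d6PGCLC libraries 1 to 4 and blue bars E12.5 PGC libraries 1 to 4, from light to dark. Col1a1 reaches 97 counts in d6PGCLC replicate 4 and 38 in replicate 2, and at most 6 in the other libraries.

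Markers of other cell types summed to less than the germ cell markers in every library. For scale, in d6PGCLCs Lama1 averaged 18.3, Lama5 23.2, Lamc1 321 and Fn1 1412 CPM. Over all genes, 16.1% were higher and 15.4% lower. Of the parietal and visceral endoderm markers, 12 of 13 had a row. They summed to 30.8 to 46.5 CPM in d6PGCLCs and to 51.0 to 78.0 CPM in E12.5 PGCs. Of these, 2 were higher (Dab2 and Pth1r) and 4 lower (Gata4, Sox17, Foxa2 and Cubn), and Ttr had no counts. Of the gonadal supporting and stromal cell markers, 13 of 14 had a row, at 6.22 to 14.3 CPM in d6PGCLCs and 13.4 to 23.4 CPM in E12.5 PGCs. Here 1 was higher (Pdgfrb) and 5 were lower (Fst, Gata4, Wt1, Pdgfra and Irx3). The 9 endothelial markers summed to 41.7 to 57.8 CPM against 24.1 to 44.6 CPM, with 3 higher (Cdh5, Flt1 and Cldn5), while Kdr and Emcn had at most 6 counts in any library. Of the blood and macrophage markers, 5 of 7 had a row, at 12.1 to 17.4 CPM against 1.37 to 3.79 CPM, with Csf1r and Cd68 higher and Ptprc at no more than 1 count. The 8 epiblast-like and mesoderm markers summed to 19.6 to 33.4 CPM against 26.8 to 29.1 CPM. Here 1 was higher (Dnmt3b) and 6 were lower (Fgf5, T, Mesp1, Hand1, Foxf1 and Mixl1). The part of these markers in the differences of the matrix genes was not tested.

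Enzymes and chaperones that make collagen were changed in both directions. Of 31 listed genes 28 had a row, and 7 were higher and 10 lower (25% and 35.7% of these, against the 16.1% and 15.4% of all genes). Their median log2 fold change was -0.23. Of the 17 that averaged 20 counts or more, 4 were higher and 6 lower (23.5% and 35.3%, against 28.3% and 25.7% of all genes at this depth). Serpinh1, the chaperone of procollagen, was lower, with 87.8 ± 15 CPM for d6PGCLCs against 211 ± 29.0 CPM for E12.5 PGCs (SD, n = 4 each; log2 fold change -1.27, SE 0.12, adjusted p = 3.16e-08). P4ha1, a subunit of the prolyl hydroxylase that stabilises the collagen helix, rose from 47.0 ± 3.78 to 115 ± 27.6 CPM (SD, n = 4 each; log2 fold change 1.28, SE 0.14, adjusted p = 1.88e-07). Bmp1, the proteinase that trims procollagen, and Pcolce2, an enhancer of that cleavage, were lower (log2 fold changes -1.94 and -1.0, adjusted p = 7.14e-04 and 0.00332). Pcolce, a related enhancer, and the lysyl oxidase Loxl4, which crosslinks collagen, were higher (log2 fold changes 2.14 and 1.11, adjusted p = 3.05e-04 and 0.00119). The number of higher enzymes fell to 4 without E12.5 PGC replicate 4.

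Of 29 listed receptors of the matrix 28 had a row, with 8 higher and 2 lower (28.6% and 7.14%, against 16.1% and 15.4% of all genes) and a median of 0.12 on the log2 scale. Of the 17 that averaged 20 counts or more, 8 were higher and 2 lower (47.1% and 11.8%, against 28.3% and 25.7% of all genes at this depth). Bcam, a receptor for laminins with the Lama5 chain, was higher, with 17.8 ± 1.57 CPM for d6PGCLCs against 1.86 ± 1.12 CPM for E12.5 PGCs (SD, n = 4 each; log2 fold change 3.24, SE 0.28, adjusted p = 4.07e-09). Itgb4, which with Itga6 forms a laminin receptor, rose from 0.992 ± 0.356 to 5.31 ± 0.515 CPM (SD, n = 4 each; log2 fold change 2.41, SE 0.32, adjusted p = 1.68e-06). Itga5, the alpha chain of the main fibronectin receptor, rose from 9.74 ± 2.12 to 35.1 ± 8.77 CPM (SD, n = 4 each; log2 fold change 1.84, SE 0.19, adjusted p = 1.55e-07). Itga1, a collagen-binding integrin chain, was lower (log2 fold change -2.25, SE 0.35, adjusted p = 1.44e-05). Itgb3 was also lower (log2 fold change -0.72, SE 0.09, adjusted p = 9.08e-07), and its protein was part of the gate for the E12.5 PGCs and not for the d6PGCLCs. The chains Itga3 and Itga6 of laminin-binding integrins, named after their values had been seen, were higher (log2 fold changes 1.67 and 1.22, adjusted p = 3.97e-07 and 0.00520), while Itgb1, the beta chain they share with many integrins, had a mean of 308 CPM for d6PGCLCs and 321 CPM for E12.5 PGCs (adjusted p = 0.883).

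Of 33 listed matrix proteases and inhibitors 32 had a row, with 8 higher and 7 lower (25% and 21.9%, against 16.1% and 15.4% of all genes) and a median of -0.15 on the log2 scale. At a mean of 20 counts or more, 6 of 15 were higher and 6 lower, beside 28.3% and 25.7% of all genes at this depth. Among the membrane-type metalloproteinases, Mmp24 and Mmp14 were higher (log2 fold changes 1.69 and 1.46, adjusted p = 9.37e-04 and 0.00141), as was their membrane-anchored inhibitor Reck (log2 fold change 1.23, adjusted p = 1.35e-04). The inhibitors Timp3 and Timp2 were lower (log2 fold changes -2.89 and -1.86, adjusted p = 7.53e-06 and 6.67e-06), whereas Timp1, named after its values had been seen, was higher (log2 fold change 0.66, adjusted p = 0.00560). The protease Adamts9 was lower (log2 fold change -2.17, adjusted p = 3.23e-05). Of these genes, all but Timp1 were below 12 CPM in each library. Mmp15, a membrane-type metalloproteinase named after its values had been seen, was more abundant and lower, with 71.9 ± 19.3 CPM for d6PGCLCs against 209.6 ± 16.4 CPM for E12.5 PGCs (SD, n = 4 each; log2 fold change -1.54, SE 0.14, adjusted p = 1.17e-08), and Mmp17 did not pass (adjusted p = 0.228).

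Of 38 other matrix proteins, all with a row, 4 were higher and 9 lower (10.5% and 23.7%, against 16.1% and 15.4% of all genes). Their median log2 fold change was -0.95. At a mean of 20 counts or more, 1 of 11 was higher and 5 were lower (9.09% and 45.5%, against 28.3% and 25.7% of all genes at this depth). Tinagl1, a glycoprotein of basement membranes, was at 8.30, 7.43, 7.47 and 6.18 CPM in d6PGCLCs and at 0, 0.210, 0.184 and 0.361 CPM in E12.5 PGCs, and changed most among the genes of these 4 lists that averaged 20 counts or more (log2 fold change 5.10, SE 0.53, adjusted p = 1.23e-09). Ntn1, a laminin-related guidance protein, fell from 129 ± 8.10 to 49.4 ± 7.09 CPM (SD, n = 4 each; log2 fold change -1.39, SE 0.11, adjusted p = 2.12e-09). Smoc1, a basement membrane glycoprotein related to Sparc, fell from 54.6 ± 6.35 to 23.3 ± 7.57 CPM (SD, n = 4 each; log2 fold change -1.23, SE 0.17, adjusted p = 7.70e-06). Thbs1, an adhesive glycoprotein, was at 5.99, 8.84, 1.01 and 0.993 CPM in E12.5 PGCs and at 0.766, 0.305, 0.166 and 0.364 CPM in d6PGCLCs (log2 fold change -3.42, SE 0.77, adjusted p = 3.58e-04), with E12.5 PGC replicates 1 and 2 carrying most of its counts.

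**Figure D5:**
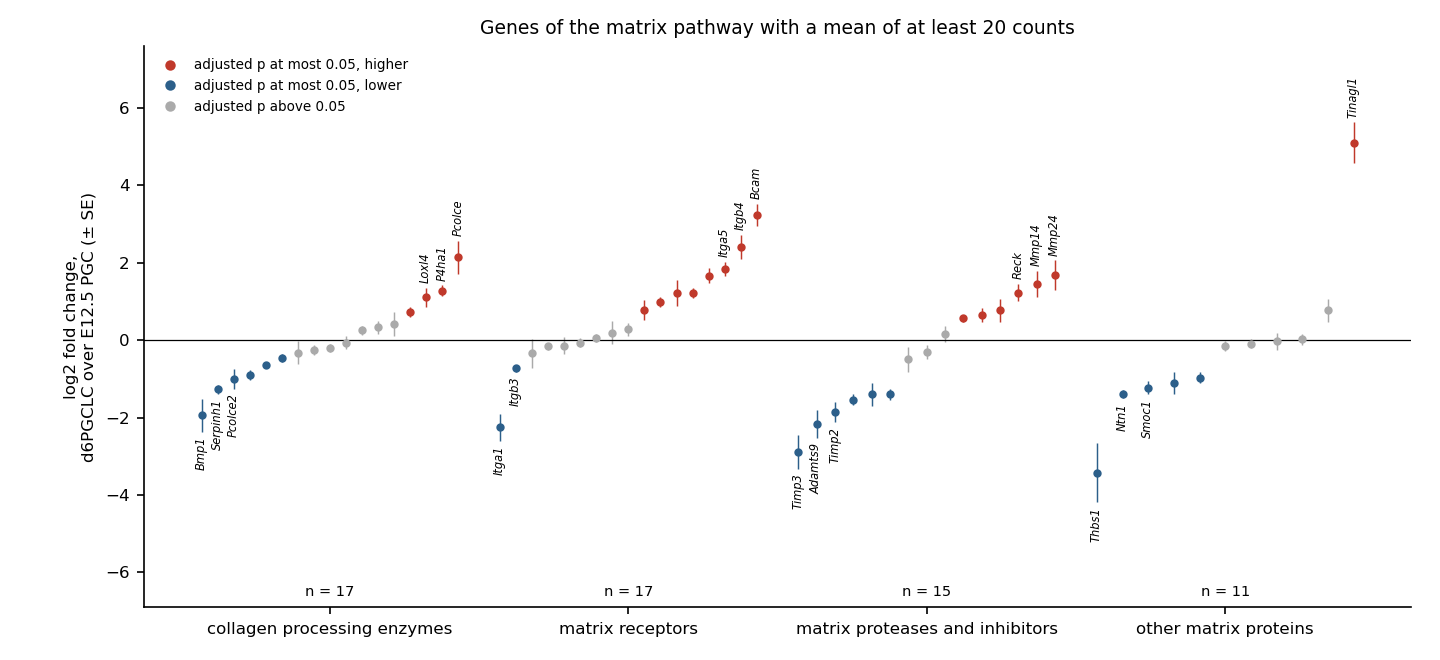
Log2 fold changes of d6PGCLC over E12.5 PGC with standard errors for the genes of 4 matrix lists that averaged 20 counts or more, ordered within each list. Red points passed an adjusted p of 0.05 and were higher in d6PGCLCs, blue points passed and were lower, grey points did not pass, and names mark up to 3 genes in each direction. Tinagl1 at 5.10 and Bcam at 3.24 are the largest increases, and Thbs1 at -3.42 and Timp3 at -2.89 the largest decreases.

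Summed by family, the alpha laminins were at 13 ± 3.26 RPKM in d6PGCLCs and 4.95 ± 0.715 RPKM in E12.5 PGCs (SD, n = 4 each), with 9.58 as the lowest d6PGCLC value and 5.60 as the highest E12.5 PGC value. The beta laminins were at 23.6 ± 2.61 and 27.4 ± 2.07 RPKM (SD, n = 4 each). The beaded-filament collagens were at 0.449 ± 0.133 RPKM in d6PGCLCs and 2.74 ± 0.417 RPKM in E12.5 PGCs, and the transmembrane collagens at 0.678 ± 0.179 and 2.44 ± 0.106 RPKM (SD, n = 4 each). Collagens as a whole made up 13.3% of the summed RPKM of the 60 genes in d6PGCLCs and 12.9% in E12.5 PGCs. These sums describe the chosen genes and carry no test.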

How the data were processed

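Poly(A) RNA of 8 pools was sequenced as stranded single-end libraries. Per the study's methods and notes, reads were aligned with STAR to GRCm38 (mm10), and unique reads were counted with QuasR on the exons of an isoform chosen at random for each gene. The deposited values are raw counts per Entrez identifier, which the authors did not normalize, and an exonic length per gene. Whether strand was used in counting is not given in the sources used here. Of 19569 genes with a GENCODE transcript, the deposited length of 20.9% equals that of a transcript plus 40 bases per exon, against 0.102% to 0.245% with the other additions tried. In the 12 matrix genes matched in this way RPKM are too low by 1.04 to 1.51 times, and the other 48 were not matched. Fold changes do not use these lengths. For 8 of the 60 matrix genes, among them Agrn, Col18a1 and Lama2, the deposited length was under 50% of the longest transcript. Their values describe the counted part of the gene only.

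Of 21950 identifiers, 21907 had a RefSeq symbol. Counts were scaled with TMM and fitted over all genes with edgeR 4.0.16 in R 4.3.3 (glmQLFit and glmQLFTest, prior count 0.125, no filter), with cell type as the only term, and p-values were adjusted by Benjamini-Hochberg over all 21950 genes. CPM and RPKM use the TMM-scaled library sizes. No library was left out, and 1 gene enters the counts but is not reported here. Libraries of a group differed by more than sampling noise (chi-square of 3.35 to 22.1 for each degree of freedom). On simulated counts, 200 of 200 changed genes were recovered and 9 of 21750 unchanged genes were called. The changed genes were drawn from those averaging 20 counts or more, at log2 fold changes of at least 2 in either direction. The same spread between libraries was set for all genes. Recovery of smaller changes and of genes with fewer counts was therefore not tested.

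Genes are named where their mean was at least 1 RPKM in a group, where they passed both thresholds, or where they encode a type IV collagen or laminin chain. Values by library are given for those averaging 20 counts or more that met the first or second condition. Of the other lists, up to 3 genes per direction are named, namely the called genes of largest change that averaged 20 counts or more. Col15a1, Col17a1, Col25a1, Col6a1 and Col6a2 are named outside this rule to complete their families, and other genes outside it are marked in the text. The matrix genes, the lists and the markers were chosen with earlier results of these data known. Results were recomputed with DESeq2 1.42.0, with the likelihood ratio test, with scaling by library size alone, DESeq2 size factors or the upper quartile, with filterByExpr or a filter that kept genes above 1 CPM in 3 samples or more, with a prior count of 2, with replicate numbers as a block, with an offset for exonic length (loess, span 0.5), with CPM in place of RPKM sums, and without single libraries or E12.5 PGC replicates 2 and 4.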

Additional observations from a re-analysis of the deposited data

Results flagged for a closer look

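In 3 cases the level of a gene in 1 library lay far from the other 3 libraries of its group. Col2a1 was at 1.57 RPKM in E12.5 PGC replicate 2, against 1.08 to 1.13 RPKM in the others. Col9a2 was at 15.8 RPKM in d6PGCLC replicate 3, against 11.7 to 12.1 RPKM, and Lamb1 was at 17.7 RPKM in d6PGCLC replicate 1, against 15 to 15.3 RPKM. Dixon's criterion was applied to 44 groups of 4 libraries, of which chance passes about 1 in 20, or 2.20 groups.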

How the results depend on the processing

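Of 396 recomputed counts of calls and family ratios, 388 stayed within 1.5 times the main count or within 1 SD. The number of matrix genes called higher was 12 to 17, and called lower 8 to 11, when each library was left out in turn. With an added log2 fold change of 2, the 5 higher genes became 3 under either filter on low counts, since Col1a1 and Col20a1 have few counts. With filterByExpr, 4 collagen enzymes were higher and 6 lower, and leaving out single libraries gave 4 to 7 higher enzymes. The likelihood ratio test called 4 receptors lower. With CPM in place of RPKM sums, the log2 ratio was -2.11 for the beaded-filament collagens and 0.59 for the heparan sulphate proteoglycans, against -2.61 and 0.40.

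Of 32 genes refitted under the alternatives, 17 kept their direction and side of the threshold throughout, and 7 of 23 called genes lost their call in at least 1 alternative, none with a change of sign. Directions turned only for genes that had not passed. Lama3 ranged from -0.26 to 0.17 with single libraries left out and was 0.01 with the length offset, Lamb3 ranged from -0.26 to 0.74, and Sparc from -0.06 to 0.01, with 0.04 without E12.5 PGC replicates 2 and 4. Without d6PGCLC replicates 2 and 4, an alternative chosen after seeing the data, Col1a2 was at -0.68 and Col3a1 at -0.72. The cause was not tested.

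Replicate numbers are shared between the groups, and the deviations of same-numbered libraries correlated at 0.337, 0.131, -0.0562 and 0.0554. The value of 0.337, for the libraries numbered 1, was the largest of all pairs between the groups. In all, 2 of 4 d6PGCLC libraries correlated best with their own number. Whether same-numbered libraries share a batch was not tested. With a replicate block, 18 matrix genes were higher and 12 lower, at 4 and 5 with the added fold change. Over all genes, the block gave 3708 higher and 3562 lower, against 3532 and 3387 in the main fit. Genes under 20 counts are limited by depth.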
